A study of Homo sapiens with 6 samples.

Results

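The genes described here are 10 response genes of 4 families: EGR1, EGR2 and EGR3, IER2, IER3 and IER5, NR4A1 and NR4A2, and BTG1 and BTG2. They were chosen by gene name, each name matched 1 row of the 58825 genes in the deposited table, and all 10 were among the 18910 genes that passed the filter on low counts. Poly(A) RNA was sequenced from 143B cells, a thymidine kinase-deficient human osteosarcoma line that carries a viral Ki-ras oncogene. The cells had been transfected for 36 h with 80 nmol/L of a siRNA against SIGLEC15 (3 libraries) or of a negative control siRNA (3 libraries). Both groups were 143B cells grown with serum and treated with the same transfection reagent, so the comparison shows the difference between 2 transfected states of 1 cell line, and untransfected cells were not analysed here. The labels give no siRNA sequences.

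Most of these genes belong to the immediate early response, the first wave of transcription after a growth factor, serum or stress signal. ERK and other kinases activate factors already present in the nucleus, chiefly SRF with its ELK partners and CREB. The immediate early genes then switch on without new protein synthesis. BTG1 is linked instead to quiescence and differentiation. EGR and NR4A proteins are themselves transcription factors, the IER proteins act in survival and stress signalling, and BTG proteins restrain proliferation and bring the CCR4-NOT deadenylase to mRNAs. Many of their mRNAs are short-lived, so their levels respond quickly to a change in transcription or in decay. RNA levels alone do not tell transcription and decay apart.

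EGR1 fell 2.44-fold in cells given the SIGLEC15 siRNA, BTG1 fell 1.43-fold, and BTG2 rose 2.49-fold. The remaining 7 genes did not pass the test. In RNA from whole cultures, fewer cells that express a gene and less of its RNA per cell cannot be told apart. With edgeR's quasi-likelihood test and Benjamini-Hochberg adjustment over all tested genes, 3 of the 10 genes were thus called at an adjusted p under 0.05, 1 higher and 2 lower, beside 4.65% of all tested genes (2.22% higher and 2.43% lower). The same 3 were the ones whose values did not overlap between the groups, which held for 26.6% of all tested genes. The median log2 fold change of the 10 genes was -0.14, against -0.0064 over all tested genes, and the median size of the change without its sign was 0.328 against 0.215.

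Libraries held between 57966691 and 67655254 gene counts. Mitochondrial transcripts took 6.16% to 6.69% of the counts in the SIGLEC15 siRNA libraries and 6.01% to 6.23% in the control siRNA libraries. SIGLEC15 itself had 12, 8 and 6 counts in the SIGLEC15 siRNA libraries and 12, 10 and 22 in the control siRNA libraries, and its log2 fold change of -0.82 (SE 0.598) did not pass (edgeR adjusted p = 0.529), so a lower level of the target was not detectable in these libraries. Of 9 osteosarcoma and mesenchymal markers IBSP was at 0 in all libraries and COL1A2 had at most 12 counts. ALPL and BGLAP, markers of mature osteoblasts, had at most 34 and 15 counts, and VIM and SPARC were abundant. On the scale of FPKM, the authors' fragment count per gene length and library size, that list summed to 542 to 589 FPKM in the SIGLEC15 siRNA libraries and 552 to 590 FPKM in the control siRNA libraries, with SPARC called higher in all 13 alternatives and COL1A1 in 7 of 12. VIM alone had means of 437 and 482 FPKM in the same order, so the sums say little about the other markers. RUNX2 had 1.31 ± 0.85 and 0.327 ± 0.054 FPKM (SD, n = 3 each). Its groups did not overlap, but its log2 fold change of 2.00 did not pass (edgeR adjusted p = 0.113). The leukocyte markers PTPRC and CD3E and the endothelial marker CDH5 were at 0 throughout. Leukocyte markers summed to 11.1 to 18.4 FPKM with the SIGLEC15 siRNA and 16.4 to 21.96 FPKM with the control siRNA, led by CD68 (39.0 ± 10.2 and 50.3 ± 7.49 counts scaled to library size, or CPM, SD, n = 3 each; not called), and endothelial markers to at most 0.181 and 0.159 FPKM. Of 6 epithelial markers CDH1 was at 0 while KRT8 and KRT18 were abundant, and the list summed to 223 to 243 FPKM and 211 to 255 FPKM in the same order. The part of these markers in the results below was not tested.

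On the FPKM scale, which allows for gene length, the 10 genes ran from the 19.2 to the 99.0 percentile of tested genes with the SIGLEC15 siRNA and from the 20.2 to the 98.9 percentile with the control siRNA. IER3 was the highest, with 182 ± 15.03 FPKM in the SIGLEC15 siRNA group and 163 ± 12.5 FPKM in the control siRNA group (SD, n = 3 each). IER2 came second with 25.2 ± 7.36 and 29.1 ± 8.14 FPKM, and BTG1 followed with 10.0 ± 0.526 and 14.4 ± 0.779 FPKM. At the other end EGR2, EGR3, NR4A2 and NR4A1 lay between 0.287 and 1.10 FPKM in the group means. EGR1 and BTG2 changed places. BTG2 lay above EGR1 with the SIGLEC15 siRNA, at 4.71 ± 0.449 against 3.29 ± 0.0798 FPKM, and EGR1 lay above BTG2 with the control siRNA, at 8.02 ± 0.453 against 1.89 ± 0.132 FPKM (SD, n = 3 each). In neither group did the libraries' values of these 2 genes overlap.

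The order was otherwise the same in both groups except at its lower end. With the SIGLEC15 siRNA EGR3 (0.332 to 0.434 FPKM) and NR4A2 (0.205 to 0.350 FPKM) overlapped, and every other pair of neighbours was apart. With the control siRNA IER5 (8.22 to 9.73 FPKM) overlapped EGR1 (7.75 to 8.54 FPKM), EGR2 (0.354 to 0.639 FPKM) overlapped NR4A2 (0.330 to 0.473 FPKM), and NR4A2 overlapped EGR3 (0.236 to 0.375 FPKM). Those neighbours did not differ beyond their spread.

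**Figure D1:**
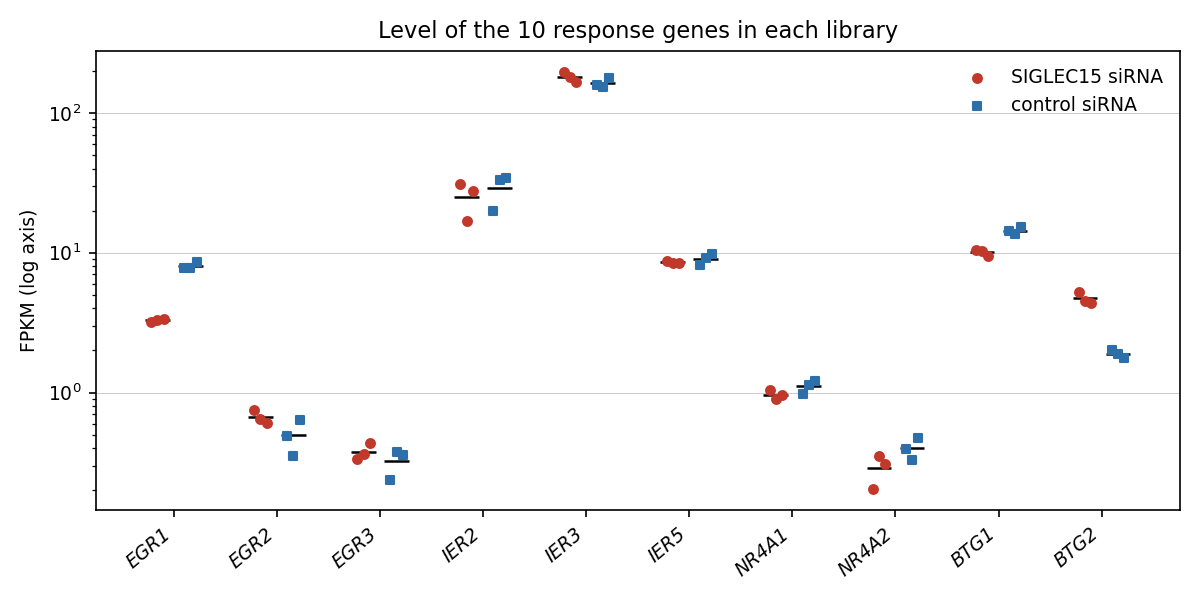
FPKM of each of the 10 genes (log axis) in the 3 SIGLEC15 siRNA libraries (red circles) and the 3 control siRNA libraries (blue squares), with a bar at each group's mean. EGR1, BTG1 and BTG2 are the genes whose groups do not overlap, IER3 is the highest at 168 to 198 FPKM and 154 to 177 FPKM, and IER2 shows 1 low library in each group.

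The EGR family are zinc finger transcription factors that bind GC-rich promoter elements. EGR1 is the one that most cell types induce within minutes of a growth signal, EGR2 is best known from Schwann cell myelination, and EGR3 from muscle spindle development and T cells. EGR1 (ENSG00000120738, chromosome 5, 138465479 to 138469303; plus strand; coordinates here are those of the authors' table) had 12.2, 12.1 and 12.6 CPM in SIGLEC15 siRNA replicates 1, 2 and 3, and 28.7, 28.9 and 32.3 CPM in control siRNA replicates 1, 2 and 3. The highest SIGLEC15 siRNA library was thus far below the lowest control library. The coefficient of variation was 2.52% with the SIGLEC15 siRNA and 6.72% with the control siRNA, where counting error alone would give 3.56% and 2.34%. The 3 SIGLEC15 siRNA libraries thus lay closer together than counting error predicts, and their closeness is no measure of precision. The log2 fold change was -1.29 (SE 0.0947, 95% interval -1.51 to -1.06, edgeR adjusted p = 0.0018), which ranks 38 by p among all tested genes. The call held in all 13 alternative settings run.

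EGR2 (ENSG00000122877, chromosome 10, 62811996 to 62919900, minus strand) had 3.33, 2.79 and 2.70 CPM in the SIGLEC15 siRNA libraries and 2.15, 1.56 and 2.84 CPM in the control siRNA libraries. The highest control library lay within the SIGLEC15 siRNA range, and the log2 fold change of 0.43 (95% interval -0.17 to 1.03) did not pass (edgeR adjusted p = 0.426). EGR3 (ENSG00000179388, chromosome 8, minus strand) had 2.03, 2.16 and 2.62 CPM with the SIGLEC15 siRNA and 1.41, 2.25 and 2.16 CPM with the control siRNA, and its groups overlapped as well (log2 fold change 0.23, 95% interval -0.34 to 0.80, edgeR adjusted p = 0.683). EGR2 had 92 to 220 counts a library and EGR3 had 87 to 176. The coefficients of variation were 11.6% and 13.8% with the SIGLEC15 siRNA and 29.5% and 23.9% with the control siRNA, all above the 7.29% to 9.23% that counting error alone would give. The intervals reach 2.04-fold and 1.74-fold higher. The lower ends of both intervals lie above the EGR1 estimate.

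Within each library log2(CPM + 0.1) of EGR1 exceeded that of EGR2 by 1.84, 2.08 and 2.19 in the SIGLEC15 siRNA group and by 3.68, 4.13 and 3.46 in the control siRNA group. The groups were fully apart, by -1.72 on the log2 scale or 3.30-fold. For EGR1 against EGR3 the difference between the groups was -1.51, also with the groups apart, and for EGR2 against EGR3 it was 0.21 with overlapping groups. Such a difference within a library does not depend on how libraries are scaled, and gene length, which CPM does not allow for, enters it alike in both groups. Over the 8 pairs of genes within a family an exact two-sided permutation test gave p = 0.1 for both EGR1 pairs and p = 0.7 for EGR2 against EGR3 (Benjamini-Hochberg adjusted p = 0.2 and 0.7). With 3 libraries on each side no smaller p than 0.1 is possible, so no pair could pass.

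Promoters of EGR1 and EGR2 are shown because both hold the SRF element of serum-induced genes while EGR1 fell and EGR2 did not pass. They run from 250 bases before to 50 bases after a RefSeq start site, in GRCh38.p14, at chr5:138465229-138465528 (plus strand) for EGR1 and chr10:62816317-62816616 (minus strand) for EGR2, which is 1 of 3 windows that RefSeq gives it and starts 103534 bases inside the longer gene model of the authors' table. Capitals mark each CArG box, the sequence bound by SRF, and each TGACG, the core of the CREB element, read on both strands, so that CGTCA is the same core on the other strand.
EGR1: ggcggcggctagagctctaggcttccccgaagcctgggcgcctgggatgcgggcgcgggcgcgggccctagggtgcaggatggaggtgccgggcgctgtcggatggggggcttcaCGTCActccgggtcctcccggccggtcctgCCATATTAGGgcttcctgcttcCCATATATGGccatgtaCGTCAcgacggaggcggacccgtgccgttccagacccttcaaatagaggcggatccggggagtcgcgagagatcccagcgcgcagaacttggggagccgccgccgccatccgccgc
EGR2: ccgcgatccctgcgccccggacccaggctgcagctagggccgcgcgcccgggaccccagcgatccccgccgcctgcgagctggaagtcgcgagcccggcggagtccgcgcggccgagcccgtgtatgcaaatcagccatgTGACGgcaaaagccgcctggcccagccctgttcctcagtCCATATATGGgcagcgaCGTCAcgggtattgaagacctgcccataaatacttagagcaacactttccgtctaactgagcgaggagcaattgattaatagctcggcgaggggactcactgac
The EGR1 window held 2 CArG boxes, and the EGR2 window held 1, which has the same 10 letters as the second one of EGR1. Each also held 2 CREB cores. Among all 35116 windows of this length 1.29% held a CArG box and 24.6% held TGACG. The other windows of EGR2 and those of IER2, IER5, NR4A1, BTG1 and BTG2 held no CArG box, which says only that these letters are not in those 300 bases.

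The BTG family are antiproliferative proteins that bind the CNOT7 and CNOT8 deadenylases and the arginine methyltransferase PRMT1. BTG1 is linked to quiescence and differentiation, and BTG2 is a classical p53 target that rises on DNA damage and on growth arrest. The 2 genes moved apart. BTG2 (ENSG00000159388, chromosome 1, 203305491 to 203309602, plus strand) had 17.4, 14.5 and 14.5 CPM in SIGLEC15 siRNA replicates 1, 2 and 3 and 6.59, 6.21 and 5.83 CPM in control siRNA replicates 1, 2 and 3. Every SIGLEC15 siRNA library was more than 2-fold above every control library. The log2 fold change was 1.32 (SE 0.124, 95% interval 1.02 to 1.61, edgeR adjusted p = 0.00445), and it places BTG2 at the 98.7 percentile of all tested genes.

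BTG1 (ENSG00000133639, chromosome 12, 92140278 to 92145846, minus strand) had 60.5, 57.4 and 54.3 CPM in the SIGLEC15 siRNA libraries and 80.6, 78.0 and 88.0 CPM in the control siRNA libraries. The groups did not overlap, and the log2 fold change was -0.52 (SE 0.0782, 95% interval -0.70 to -0.33, edgeR adjusted p = 0.0175). The call was lost without SIGLEC15 siRNA replicate 2 or 3 (adjusted p = 0.0811 and 0.0584) and without control siRNA replicate 1, 2 or 3 (0.0586, 0.0572 and 0.0609), with log2 fold changes of -0.56 to -0.47 in these fits. The log2 CPM of BTG1 less that of BTG2 within a library was 1.79, 1.98 and 1.89 with the SIGLEC15 siRNA, against 3.59, 3.63 and 3.89 with the control siRNA. That is a difference of -1.82 or 3.52-fold with the groups fully apart (exact two-sided permutation p = 0.1, the smallest possible, adjusted p = 0.2 over 8 pairs).

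Promoters of BTG1 and BTG2 are shown because the 2 relatives moved in opposite directions. They lie at chr12:92145797-92146096 (minus strand) and chr1:203305269-203305568 (plus strand) in GRCh38.p14, cut from RefSeq as above, and capitals again mark TGACG on either strand.
BTG1: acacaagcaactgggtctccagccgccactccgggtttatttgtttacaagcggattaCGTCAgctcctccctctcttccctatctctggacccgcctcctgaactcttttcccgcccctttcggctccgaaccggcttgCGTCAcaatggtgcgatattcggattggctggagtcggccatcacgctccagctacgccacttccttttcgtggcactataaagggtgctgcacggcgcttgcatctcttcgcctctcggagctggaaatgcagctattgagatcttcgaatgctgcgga
BTG2: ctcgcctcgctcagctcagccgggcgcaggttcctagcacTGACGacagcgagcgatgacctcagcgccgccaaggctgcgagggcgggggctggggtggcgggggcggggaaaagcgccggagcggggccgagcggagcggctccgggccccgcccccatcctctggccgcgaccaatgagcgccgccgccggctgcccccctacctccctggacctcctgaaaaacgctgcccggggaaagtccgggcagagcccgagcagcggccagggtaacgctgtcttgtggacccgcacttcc
BTG1 held 2 CREB cores and 1 GGGCGG, and a TATAAA, which 11.5% of all windows hold. BTG2 held 1 such core, no TATAAA and 3 matches to GGGCGG, the core bound by SP1, which 15786 of the 35116 windows hold, and 1 of these overlaps a GCGGGGGCG, the site bound by EGR proteins. GCGGGGGCG stood in 5.07% of all windows and in no other scanned window of the genes described here. Windows of EGR3, IER3 and NR4A2 were not scanned. G and C made up 56.0% of the BTG1 window and 73.3% of the BTG2 window.

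**Figure D2:**
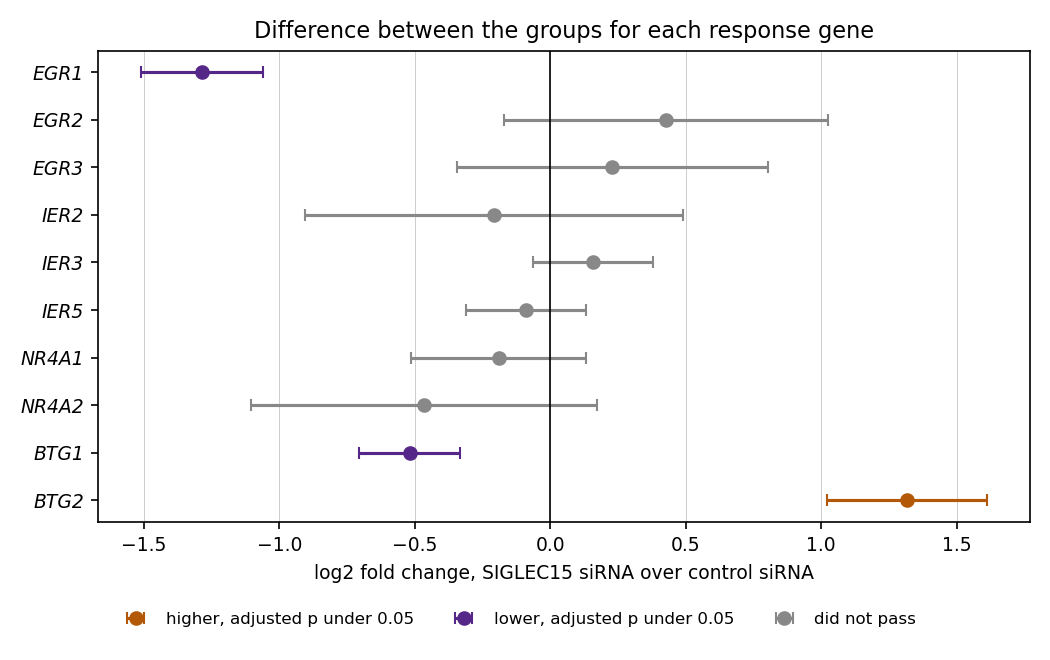
log2 fold change of each gene, SIGLEC15 siRNA over control siRNA, with its 95% interval from the edgeR fit (3 libraries per group). EGR1 (-1.29) and BTG1 (-0.52) lie below 0, BTG2 (1.32) lies above it, and the intervals of the other 7 genes include 0.

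None of the 3 IER genes passed. IER2 (ENSG00000160888, chromosome 19, 13150411 to 13154911, plus strand), a nuclear protein induced by serum, had 116, 60.9 and 102 CPM in SIGLEC15 siRNA replicates 1, 2 and 3 and 71.8, 122 and 128 CPM in control siRNA replicates 1, 2 and 3. Each group had 1 library far below its other 2, SIGLEC15 siRNA replicate 2 and control siRNA replicate 1, and the coefficients of variation were 30.6% and 28.6% while counting error alone, at 3589 counts or more in every library, would give 1.29% and 1.24%. The log2 fold change of -0.21 had a 95% interval of -0.90 to 0.49 (edgeR adjusted p = 0.776), and without SIGLEC15 siRNA replicate 2 it was 0.02.

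IER3 (ENSG00000137331, chromosome 6, 30743199 to 30744548, minus strand), which dampens apoptosis and acts on ERK signalling, had 322, 285 and 271 CPM in the SIGLEC15 siRNA libraries and 252, 246 and 288 CPM in the control siRNA libraries. SIGLEC15 siRNA replicates 2 and 3 lay below the highest control library, and the log2 fold change of 0.16 (95% interval -0.06 to 0.38) did not pass (edgeR adjusted p = 0.43). IER5 (ENSG00000162783, chromosome 1, 181088712 to 181092899, plus strand), which binds the phosphatase PP2A and promotes HSF1 activity, had 44.3, 40.9 and 42.2 CPM against 40.6, 46.0 and 49.1 CPM in the same order. Its log2 fold change was -0.09 with a 95% interval of -0.31 to 0.13 (edgeR adjusted p = 0.674), which as a ratio runs from 0.806 to 1.10. IER3 over IER5 within a library differed between the groups by 0.24 on the log2 scale with the groups apart (exact permutation p = 0.1, adjusted p = 0.2 over 8 pairs), while IER2 over IER3 and IER2 over IER5 differed by -0.37 and -0.13 with overlapping groups (exact permutation p = 0.4 and 0.6).

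The NR4A genes encode orphan nuclear receptors that act as immediate early transcription factors. NR4A1 (ENSG00000123358, chromosome 12, 52022832 to 52059507, plus strand), known as Nur77, had 9.25, 7.81 and 8.42 CPM in the SIGLEC15 siRNA libraries and 8.53, 9.85 and 10.7 CPM in the control siRNA libraries. The groups overlapped, and the log2 fold change was -0.19 (95% interval -0.51 to 0.13, edgeR adjusted p = 0.516). NR4A2 (ENSG00000153234, chromosome 2, 156324437 to 156332721, minus strand), known as Nurr1, had 0.984, 1.63 and 1.49 CPM and 1.84, 1.56 and 2.27 CPM in the same order, from 65 to 139 counts a library. Control siRNA replicate 2 lay within the SIGLEC15 siRNA range, and the log2 fold change of -0.47 had a 95% interval of -1.10 to 0.17 (edgeR adjusted p = 0.416). The coefficient of variation of NR4A2 was 24.9% with the SIGLEC15 siRNA and 19.0% with the control siRNA, against 10.7% and 9.33% from counting error alone. NR4A1 over NR4A2 within a library differed between the groups by 0.27, with overlap (exact permutation p = 0.5).

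**Figure D3:**
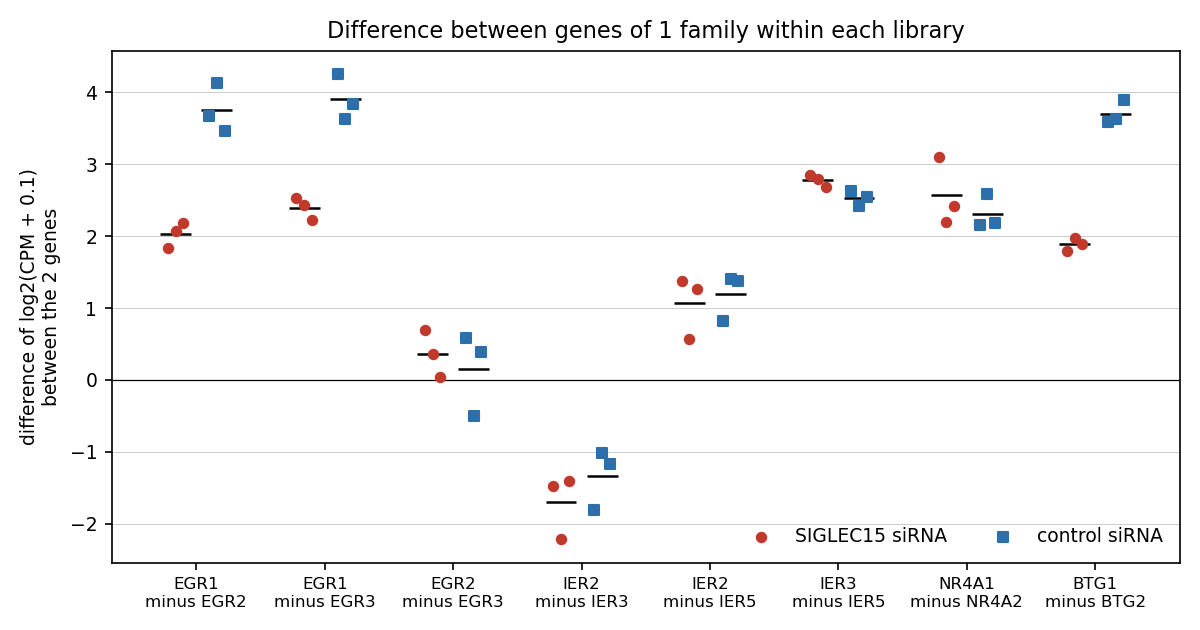
Difference of log2(CPM + 0.1) between 2 genes of a family in each of 3 SIGLEC15 siRNA libraries (red circles) and 3 control siRNA libraries (blue squares), with bars at the group means. EGR1 over EGR2, EGR1 over EGR3 and BTG1 over BTG2 were lower with the SIGLEC15 siRNA by 1.72, 1.51 and 1.82 with the groups fully apart, and IER3 over IER5 was apart by 0.24.

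Genes that overlap these loci took few reads. In the deposited table BTG1 overlaps the antisense gene AC025164 and the same-strand LINC01619, and both together had at most 3.66% of its counts in any library. IER3 overlaps the antisense gene IER3-AS1, listed at 0 in all 3 SIGLEC15 siRNA libraries and at 23, 0 and 128 counts in the control siRNA libraries, at most 0.726% of the IER3 count. Whether counting used strand is not given in the sources used here, so reads of such pairs cannot be told apart. Adding the overlapping genes gave a log2 ratio of mean CPM of -0.53 in place of -0.52 for BTG1 and of 0.12 in place of 0.23 for EGR3, whose antisense neighbour AC055854 had up to 13.8% of its count. The gene overlapping IER2, AC011446, had at most 0.0293% of its count, and AC025259, which overlaps NR4A1, was at 0 in all libraries.

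The lists that follow are read against the same shares of all tested genes. With edgeR 4.65% of all tested genes were called (2.22% higher and 2.43% lower). An unadjusted p under 0.05 was reached by 19.1% of all tested genes with edgeR. DESeq2 called 17.1% of the genes it gave an adjusted p (8.62% higher and 8.49% lower), and limma on log2(FPKM + 1) called 7.99% (3.73% higher and 4.26% lower). The closest relatives outside the 10 genes did not pass in edgeR. Of 9 such genes, the EGR4 and BTG4 genes had no counts, and of the 7 tested 0 rose and 0 fell with edgeR (2 at an unadjusted p under 0.05), limma called 0 of 6, and DESeq2 called BTG3 higher and NAB2 lower. BTG3, the next BTG family member, had 27.6 ± 0.780 CPM with the SIGLEC15 siRNA and 20.0 ± 3.08 CPM with the control siRNA (SD, n = 3 each; log2 fold change 0.47, edgeR adjusted p = 0.0982), and its groups did not overlap. NAB2, a corepressor that EGR1 induces and that binds EGR proteins, had 31.3 ± 3.93 and 38.8 ± 1.68 CPM (log2 fold change -0.31, edgeR adjusted p = 0.188). The groups did not overlap for NAB2 either, as for 26.6% of all tested genes. Its relative NAB1 had 78.9 ± 7.09 and 73.3 ± 4.77 CPM (log2 fold change 0.11, edgeR adjusted p = 0.603). The antiproliferative TOB1 and TOB2 and the IER5 relative IER5L had log2 fold changes of 0.12, 0.11 and 0.34. NR4A3, at most 45 counts a library, had 0.35. The median over the 7 genes was 0.12.

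Among 30 other immediate early genes edgeR called 1 higher and 7 lower, beside 2.22% and 2.43% of all tested genes, and 22 were not called. Their median log2 fold change was -0.42 against -0.0064 over all tested genes. At an unadjusted p under 0.05 there were 16 of the 30, beside 19.1% of all tested genes. DESeq2 called 2 higher and 11 lower, and limma called 1 higher and 8 lower of 26. The list was written with earlier results of these data known, and so is no independent evidence of a direction. DUSP1, a MAP kinase phosphatase, fell by 1.56 on the log2 scale, CCN2, a matricellular protein, by 1.61, and JUN, the AP-1 subunit, by 0.82. ARC, an SRF-driven gene best known from neurons, had 12.1 ± 0.970 CPM with the SIGLEC15 siRNA and 21.9 ± 0.811 CPM with the control siRNA (SD, n = 3 each; log2 fold change -0.85, edgeR adjusted p = 0.00874). PPP1R15A, the stress-induced subunit that restores translation, had 131 ± 5.36 and 216 ± 12.6 CPM (-0.72, edgeR adjusted p = 0.00447). PTGS2, the inducible cyclooxygenase, rose by 1.22. All 6 of these had groups that did not overlap, as did 26.6% of all tested genes. They were named for the smallest p among the called genes, which favours such groups, so this adds no support.

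Of 21 genes upstream of the response, among them SRF, ELK, CREB, CRTC and RSK genes, 2 fell, 0 rose and 19 did not pass. Among all tested genes edgeR called 4.65%. The median log2 fold change of the 21 was 0.05. DESeq2 called 3 lower and 0 higher, and limma called 2 lower and 0 higher of 19. At an unadjusted p under 0.05 there were 3, a share below the 19.1% of all tested genes. SRF, the factor that binds the CArG box, had 42.4 ± 2.00 CPM with the SIGLEC15 siRNA and 57.3 ± 4.30 CPM with the control siRNA (SD, n = 3 each), or -0.43 as log2 fold change (SE 0.0849; edgeR adjusted p = 0.0393). CRTC3, a coactivator of CREB, had 21.1 ± 1.82 and 30.6 ± 2.33 CPM (log2 fold change -0.54, SE 0.107, edgeR adjusted p = 0.0427). Both calls were lost whichever of the 6 libraries was left out, with log2 fold changes of -0.50 to -0.39 for SRF (adjusted p 0.0686 to 0.14) and -0.60 to -0.47 for CRTC3 (adjusted p 0.0757 to 0.137). CREB1 and ELK1 had log2 fold changes of 0.31 and 0.12 and did not pass, and both are named after their values were seen.

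Of 13 genes described as EGR1 targets 3 rose, 1 fell and 9 were not called, while edgeR called 4.65% of all tested genes. Their median log2 fold change was 0.19, and NAB2 is also among them. At an unadjusted p under 0.05 there were 11 of the 13, beside 19.1% of all tested genes. DESeq2 called 7 higher and 4 lower (17.1% of all genes), and limma called 3 higher and 1 lower of 12. This list too was written with earlier results of these data known, so its counts are no independent evidence of a change in EGR1 targets. PDGFB, a growth factor chain, had 7.68 ± 0.581 CPM with the SIGLEC15 siRNA and 3.97 ± 0.358 CPM with the control siRNA (SD, n = 3 each; log2 fold change 0.95, edgeR adjusted p = 0.0159). THBS1, the matrix protein thrombospondin, rose by 0.56 and F3, tissue factor, by 0.53 on the log2 scale. The F3 call was lost whichever library was left out (0.47 to 0.62, adjusted p 0.0686 to 0.148). The THBS1 call was lost without any library but SIGLEC15 siRNA replicate 1 (0.48 to 0.59, adjusted p 0.0525 to 0.0809), and the PDGFB call without SIGLEC15 siRNA replicate 2 or 3 or control siRNA replicate 2 or 3 (0.88 to 0.96, adjusted p 0.053 to 0.0706).

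Of 21 p53 target genes, listed because BTG2 is one, 0 rose and 0 fell with edgeR, at a median log2 fold change of -0.05. At an unadjusted p under 0.05 there were 6 of the 21, beside 19.1% of all tested genes, limma called 0 of 20, and DESeq2 called 3 higher and 3 lower, beside 17.1% of all genes in either direction. CDKN1A and MDM2, the best known p53 targets, had log2 fold changes of -0.10 and -0.25, and both are named after their values were seen. Of 14 genes of the CCR4-NOT complex and its partners, through which BTG proteins act, 1 rose, 0 fell and 13 were not called, while 4.65% of all tested genes were called. Their median log2 fold change was -0.04. DESeq2 called 1 higher and 2 lower, beside 17.1% of all genes in either direction, and limma called 1 higher and 1 lower. At an unadjusted p under 0.05 there were 3 of the 14, near the 19.1% of all tested genes. CNOT6, a catalytic deadenylase subunit, had 79.5 ± 1.61 CPM with the SIGLEC15 siRNA and 60.9 ± 2.44 CPM with the control siRNA (SD, n = 3 each; log2 fold change 0.38, edgeR adjusted p = 0.0241). That call was lost whichever library was left out (0.36 to 0.42, adjusted p 0.0568 to 0.108).

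The 3 RXR genes, partners of NR4A receptors, gave 0 calls with edgeR, DESeq2 and limma and 0 at an unadjusted p under 0.05. A heat shock list of 10 genes held HSF1 and genes that protein-damaging stress induces through it. Of these 0 rose and 1 fell, at a median log2 fold change of 0.03, while edgeR called 4.65% of all tested genes. The one that fell was HSF1 itself, so edgeR called none of the genes induced through it. HSF1 had 24.6 ± 2.55 CPM in the SIGLEC15 siRNA group and 49.4 ± 1.08 CPM in the control siRNA group (SD, n = 3 each), or -1.01 as log2 fold change (SE 0.0989; edgeR adjusted p = 0.00515). At an unadjusted p under 0.05 there were 2 of the 10, near the 19.1% of all tested genes, DESeq2 called 1 higher and 1 lower, and limma called 0 higher and 1 lower of 9.

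**Figure D4:**
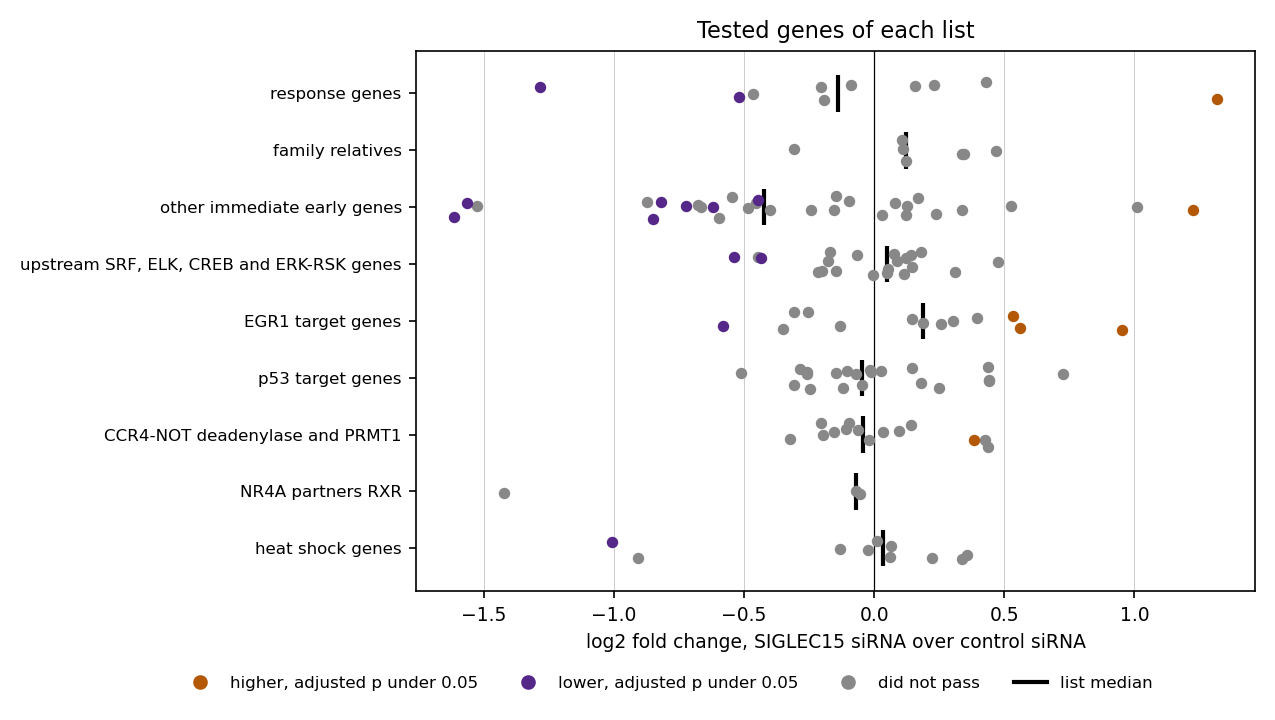
log2 fold change, SIGLEC15 siRNA over control siRNA, of each tested gene in the 10 response genes and 8 lists around them, with a bar at each list's median; orange and purple points passed as higher and lower. Of the lists, the other immediate early genes have the lowest median, -0.42, and medians of the other lists lie between -0.07 and 0.19.

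The genes whose values over the 6 libraries were most like those of the 3 called genes were found by the root mean square difference of log2(CPM + 0.1), each less its own mean, among 9796 genes with a symbol and at least 10 CPM. For EGR1 they were PEA15, an ERK-binding protein, and MRPL28, of the mitochondrial ribosome, at 0.0312 and 0.0372, with log2 fold changes of -1.27 and -1.28. For BTG1 they were TMEM185B and SH3GL1, an endophilin, at 0.0389 and 0.0398, with -0.52 and -0.49. For BTG2 they were SLC2A3, a glucose transporter, and ZC3H12A, an endoribonuclease, at 0.0705 and 0.138, with 1.25 and 1.17. This is a description of 6 libraries in 2 groups, and the likeness is set mainly by the difference between the groups.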

How the data were processed

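Poly(A) RNA-seq libraries of 143B cells were compared, 3 with the SIGLEC15 siRNA and 3 with a control siRNA. The authors deposited whole-number counts per gene and FPKM values per the file headers. HISAT, StringTie and edgeR are named in the submitters' processing notes. Versions, genome build, counting step and strand use: not given in the sources used here. Coordinates are those of the deposited table, and 4 of the 10 genes have the same start and end in GENCODE 29.

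The test was the quasi-likelihood F test of edgeR 4.0.16 (R 4.3.3) on all 6 libraries, after filterByExpr with a count minimum of 10 and a total of 15 and with TMM scaling, without covariates, with Benjamini-Hochberg adjustment over 18910 genes and a threshold of 0.05. Standard errors come from the F statistic. CPM uses TMM-scaled library sizes. Pairs of genes within a family were compared by the difference of log2(CPM + 0.1) in each library with an exact two-sided permutation test. Lists were counted, not tested. Alternatives used limma 3.58.1 on log2 FPKM, DESeq2 1.42.0, other filters and scaling, a replicate block and each library left out. The edgeR step was tested on simulated data. Promoters come from RefSeq (GRCh38.p14), and windows of 7 of the 10 genes were scanned. EGR3, on chromosome 8, was left out of the scan, and IER3 and NR4A2 had no entry.

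The genes and lists were chosen with earlier results of these data known. Named were the 10 genes, SIGLEC15, their family relatives, called members of each list (at most 6 by smallest p), overlapping genes and the 2 most alike genes of each called gene; genes outside this rule are marked, apart from cell type markers, and some list members are not reported here. Whether replicate libraries were separate cultures is not stated in the labels. Each p-value therefore reflects spread among these libraries only, and that spread may be technical.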

Additional observations from a re-analysis of the deposited data

How the results depend on the processing

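EGR1 kept its direction and its call in all 13 alternatives (log2 fold change -1.32 to -1.07), BTG2 its direction in all 12 that tested it (0.98 to 1.36) and its call in 11, and BTG1 its direction in all 13 and its call in 7. The 7 genes that did not pass were called in no alternative, and IER2 alone changed sign, ranging from -0.427 to 0.022 with single libraries left out and lying above 0 only without SIGLEC15 siRNA replicate 2. Leaving out single libraries gave 260 to 431 changed genes (108 to 189 higher and 151 to 242 lower, against 879, 419 and 460), 2 to 3 of the 10 genes, 1 higher and 1 to 2 lower. DESeq2 called 2916 genes (1469 higher, 1447 lower); the cause was not tested. With a mean FPKM of at least 5, 0 of the 10 genes were higher, because BTG2 was not tested there. A replicate block on the numbers left 50 changed genes (15 higher, 35 lower) and 1 of the 10 (0 higher, 1 lower), EGR1, with BTG2 at an adjusted p of 0.0594 and BTG1 at 0.131. Libraries with number 1, 2 or 3 had deviations correlated at -0.0536, 0.00935 and -0.0757 between the groups, so the numbers do not show pairs. In paired form the smallest p the family pairs could reach was 0.25. Leaving out 1 library turned the sign of 3 family pairs whose groups overlapped: NR4A1 minus NR4A2 ran from -0.002 to 0.456, IER2 minus IER5 from -0.316 to 0.125 and EGR2 minus EGR3 from -0.12 to 0.421. EGR2, EGR3 and NR4A2 had the fewest counts, 65 to 220 a library, and their coefficients of variation of 11.6% to 29.5% exceeded the 7.29% to 10.7% that counting alone would give.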

Other observations

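Several other immediate early genes, singled out after their values were seen, had 1 library far from the other 2 of its group, as IER2 did. KLF6, a zinc finger factor, had 47.2 CPM in SIGLEC15 siRNA replicate 2 and 148 and 175 CPM in replicates 1 and 3, against 213, 207 and 172 CPM in control siRNA replicates 1, 2 and 3. ZFP36L1, an mRNA decay factor, had 136, 141 and 127 CPM in the SIGLEC15 siRNA libraries, against 166, 161 and 43.4 CPM in the control siRNA libraries. MAFF, a small MAF factor, had 8.07, 17.3 and 6.17 CPM with the SIGLEC15 siRNA, against 37.5, 8.90 and 44.4 CPM with the control siRNA. PHLDA1 had 96.8, 230 and 225 CPM with the SIGLEC15 siRNA, against 133, 313 and 361 CPM with the control siRNA, with replicate 1 the lowest in both groups.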
